A study of Mus musculus with 22 samples.

Results

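Ribosomal proteins are the protein part of the cytosolic ribosome, the machine that translates mRNA into protein. Each mature ribosome carries about equal numbers of nearly all of them, split between a large subunit, which forms peptide bonds, and a small subunit, which reads the mRNA. Their mRNAs are abundant in most tissues, rise in growing or activated cells and in many cases begin with a run of pyrimidines (the TOP element), through which mTOR signalling controls their translation.

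Of the 21793 protein-coding genes in the count tables, 81 carry a symbol of a cytosolic ribosomal protein (Rpl, Rps, Rplp0 to Rplp2 or Rpsa) and do not lie on the Y chromosome. They comprise 47 proteins of the large subunit, 3 proteins of its P stalk, the arm that recruits translation factors, and 31 proteins of the small subunit. Rps4l, Rpl32l and Rpl6l have fitting symbols but are annotated as pseudogenes and were left out. Ribosomal proteins with other names, such as Fau, Rack1 and Rps3a1, were kept apart as a list of their own. The genes were chosen by name and not by any value.

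The study sequenced RNA of lung epithelial cells that had been sorted as living CD45-EpCAM+ single cells. The mice were WT, AhR-/- (labelled AhR-KO, lacking the aryl hydrocarbon receptor, a ligand-activated transcription factor) or CYP1B1-/- (labelled CYP1B1-KO, lacking an enzyme that degrades AhR ligands), the mutant strains being knockouts backcrossed to C57BL/6. They were either at steady state (4 WT, 3 AhR-/- and 3 CYP1B1-/- libraries) or sensitized with house dust mite extract, HDM (4 libraries of each genotype). The steady-state and the HDM counts come from tables named for different runs, and HDM and run can therefore not be told apart. Age and sex are not in the labels. Nothing in the labels says that replicates are separate animals, so p-values measure the spread between these libraries.

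Total counts ranged from 9654825 to 17878442 per library. A handful of predicted genes took between 0.0106% and 88.2% of them. The 81 genes together received between 2225 and 149549 counts. Ahr was not lower in the libraries labelled AhR-/- (17.6 ± 2.36 CPM, counts scaled to library size; SD, n = 3) than in WT (9.58 ± 2.76; SD, n = 4) at steady state, nor was Cyp1b1 in those labelled CYP1B1-/- (5.10 ± 1.28; SD, n = 3, against 1.14 ± 0.564; SD, n = 4). Counts summed over all exons therefore do not show the deletions, and genotypes are given as labelled. The HDM libraries labelled AhR-/- 3 and 4 stood apart from the other 10 HDM libraries. Their summed Y-linked markers were at 172 and 191 CPM against at most 0.258, their 19 hematopoietic markers at 1303 and 1455 CPM against 6682 to 16544, and their 6 alveolar type 1 markers at 13909 and 18966 CPM against 505 to 9320. In these respects they lay in or near the steady-state ranges (66.6 to 250 CPM for Y-linked, 286 to 1734 for hematopoietic and 16802 to 24895 for alveolar type 1 markers). Counts of calls that rest on them are given with and without them. Y-linked reads were thus present in all 10 steady-state libraries and nearly absent from all WT and CYP1B1-/- HDM libraries, although the methods describe sex-matched animals. Sex and state cannot be told apart in the comparisons of HDM with steady state in WT and CYP1B1-/-. In AhR-/-, all steady-state libraries and HDM replicates 3 and 4 carried Y-linked reads, and HDM replicates 1 and 2 had at most 0.258 CPM of them.

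Windows of 30 bases around the RefSeq transcript start (GRCm38.p6, 12 bases before to 18 bases from the start, coding strand) are given for genes on which the results turn, with runs of 5 or more C or T in capitals, since the TOP element is such a run at the start of the transcript. The annotated start is the 13th base. The first 6 are the genes that passed the test between AhR-/- and WT after HDM, and the others are 2 with large and 2 with small changes between the states.
Rps2, chr17:24720051-24720080, plus strand: cagtcgagatctcgcgCTTCTTggagcact
Rpl6, chr5:121204489-121204518, plus strand: tcaCCTCCCgtcattgcttatagaccggaa
Rpl13a, chr7:45128728-45128757, minus strand: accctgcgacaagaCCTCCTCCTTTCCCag
Rpl18, chr7:45718059-45718088, plus strand: gtctcgcaggccgCTCTTTCCCCgcccact
Rpl5, chr5:107900516-107900545, plus strand: cacgtcgcttgcgtgctggtggtgctacat
Rps16, chr7:28350677-28350706, plus strand: gCTTCTgtcgtgacgtagcactcaatgcgc
Rpsa, chr9:120127754-120127783, plus strand: ggttatttaaggacgtcaTTTCCggccgcc
Rps18, chr17:33955648-33955677, minus strand: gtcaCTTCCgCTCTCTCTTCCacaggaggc
Rps28, chr17:33824545-33824574, minus strand: accgcgtgcggtctcgcgagagcgaaagtg
Rpl24, chr16:55966263-55966292, plus strand: aagctgttgctaggaaacagactgggcgct
Rpl13a, Rps18 and Rpl18 had runs of 14, 11 and 10 bases over or within 2 bases of the annotated start. The runs of Rpl6 and Rps16 lay before it and those of Rps2 and Rpsa began some bases after it, and Rpl5, Rps28 and Rpl24 had no run of 5 bases in this window.

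RefSeq promoter sequences (250 bases before to 50 after the start) were matched for 61 of the 81 genes. A run of 8 or more C or T within 30 bases of the start was found in 34 of the 61 (55.7%) and in 25.7% of 26964 other genes. The letters CTTTCC on the coding strand of the same window occurred in 12 (19.7%) against 3.37%. CCGGAAG on either strand of the 300 bases, the core bound by ETS factors such as GABPA, occurred in 25 (41.0%) against 9.86%. AAGATGGC, a YY1 core, occurred in 5 (8.20%) against 3.18%. TATAAA 50 to 15 bases before the start occurred in 0 of 61 against 2.79%. GCGTG, the core of the AhR response element, occurred on either strand in 37 (60.7%) against 35.1%. The longer TGCGTG, which contains GCGTG, occurred in 11 of 61 against 9.57%. These are matches of letters and not sites of binding. The genes also often host small nucleolar RNAs, the guides of rRNA modification: 29 of 81 (35.8%) contain at least 1 annotated snoRNA, compared with 1.267% of 22028 protein-coding genes. Rpl4 contains 5, and Rpl13a contains 4.

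Most ribosomal protein mRNAs have left processed pseudogenes in the genome, and this bears on every count given here. Stretches of 50 bases of the coding transcripts were shared with annotated pseudogenes in 78 of the 81 genes. Rpl3l and Rpl39l were among the 3 that shared none. The 1084 pseudogenes received 825065 counts over the 22 libraries, against 800381 for the genes themselves. In 52 of 81 families the pseudogenes held more reads than the gene, with a median of 64.7% of the reads of a family. The share was 97.1% for Rpl24, 95.2% for Rpl36a, 93.9% for Rps29 and 92.8% for Rps6, but 0.222% for Rpl8, 6.89% for Rplp1 and 9.91% for Rps3. The submitters' treatment of reads with several positions is not given in the sources used here. How reads were divided between a gene and its copies can therefore not be told from the counts. Some of the genes also overlap other annotated genes, which covered 29.4% of the exon bases of Rpl13a (Gm45713), 24.3% of Rpl5 (Fam69a), 24.8% of Rps25 (Trappc4 and Ccdc84), 9.23% of Rpl18 (Sphk2) and 47.0% of Rpl24 (Gm28037). Whether strand was used in counting is not given in the sources used here either.

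The same 30 bases of coding sequence from a gene, its most-read pseudogene and its expressed paralog illustrate this (GENCODE M21; capitals are bases that differ from the gene). They are bases 151 to 180 of the coding sequence of Rpl36a and bases 6 to 35 of that of Rps27.
Rpl36a: cagactaagcctattttccgcaaaaaggct
Rpl36a-ps2: cagactaagcctattttccgcaaaaaggct
Rpl36al: cagacAaagccAatCttTcgAaaGaaggcC
Rps27: tctcgcaaaggatctccttcatccctctcc
Gm17241: tctcgcaaaggatctccttcatcccGctcc
Rps27l: CctGgcTaGAgatctGTtAcaCccTtcCTT
Rpl36a-ps2, on chromosome 3 (145879020 to 145879340), was identical to Rpl36a over all 321 coding bases and held 7609 reads, compared with 393 for Rpl36a on chromosome X (134585654 to 134588062). Gm17241 matched Rps27 at 250 of 252 bases and held 6453 reads, compared with 1264 for Rps27. The paralog Rpl36al was identical at 282 of 321 bases (87.9%) and Rps27l at 76.1%, and they held 4755 and 22924 reads.

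Levels between genes were compared as CPM per kilobase of exon, averaged over the 22 libraries. Rpl4, a large-subunit protein that lines the peptide exit tunnel, was highest with 171. Rplp1 (114), Rpl32 (98.2) and Rpl8 (87.0) were also among the 5 highest. The lowest were Rpl10l (0.143) and Rpl3l (0.161), paralogs known from testis and from striated muscle, then Rpl39l (0.377), Rpl12 (0.634) and Rpl17 (0.677). Rpl12 and Rpl17 are general components of the large subunit, and 88.0% and 93.8% of the reads of their families lay on pseudogenes. Rpl4 was first in each of the 6 groups and remained first with family counts (gene plus pseudogenes) or with the longest coding transcript as length. Neighbours in the order mostly did not differ beyond their spread: in WT at steady state the ranges of 77 of 80 neighbouring pairs overlapped, and in the 3 HDM groups all 80 did.

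The paralogs were at different levels from their parent genes. In WT at steady state, Rps27l, a stress-inducible small-subunit paralog, had 51.7 ± 8.73 CPM per kilobase (SD, n = 4; 45.6 to 64.5), and Rps27 had 2.42 ± 0.452 (SD, n = 4; 2.07 to 3.05). Rpl36al had 5.83 ± 1.10 (SD, n = 4) and Rpl36a 0.549 ± 0.132 (SD, n = 4). In both pairs every library had more of the paralog, but most reads of the families of Rps27 and Rpl36a were counted on pseudogenes. Rpl3 and Rpl10 were at 2.13 ± 0.199 and 2.63 ± 0.323 (SD, n = 4), whereas Rpl3l and Rpl10l had at most 10 and 9 counts in any library and did not pass the filter on low counts. Rpl39 was at 6.85 ± 1.03 (SD, n = 4), and Rpl39l passed the filter in the fit over both states but in neither table alone.

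As a sum, the genes took a small and even share of the counts at steady state and a larger, uneven one after HDM. With the dominant predicted genes left out, their percentage of the protein-coding counts was 0.218%, 0.207%, 0.186% and 0.201% in the WT libraries at steady state. It was 0.204%, 0.195% and 0.152% in the libraries labelled AhR-/- (replicates 1, 3 and 4) and 0.142%, 0.180% and 0.207% in those labelled CYP1B1-/- (replicates 2, 3 and 4). The 10 steady-state libraries thus overlapped between genotypes. After HDM, the share was 1.14%, 0.632%, 0.939% and 1.13% in WT and 0.772%, 0.456%, 1.23% and 0.708% in the libraries labelled CYP1B1-/-. All 8 values lay above every steady-state library. This held only with the dominant predicted genes left out: as a percentage of all protein-coding counts, 3 of the 4 WT and 2 of the 4 CYP1B1-/- libraries lay above the steady-state range (0.0901% to 0.174%), and the lowest of each were at 0.101% and 0.0706%. The libraries labelled AhR-/- fell apart after HDM: replicates 1 and 2 were at 0.544% and 0.760%, whereas replicates 3 and 4 were at 0.188% (95% Wilson interval 0.181 to 0.196) and 0.181% (0.176 to 0.186), inside the steady-state range. As a percentage of all protein-coding counts, replicates 3 and 4 were at 0.0211% and 0.0406%, below every steady-state library, and 88.2% and 76.5% of their counts lay on the dominant predicted genes. The intervals cover counting error only. Replicate 3 had the fewest counts on the genes (2225), so its single-gene values are the least precise.

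**Figure D1:**
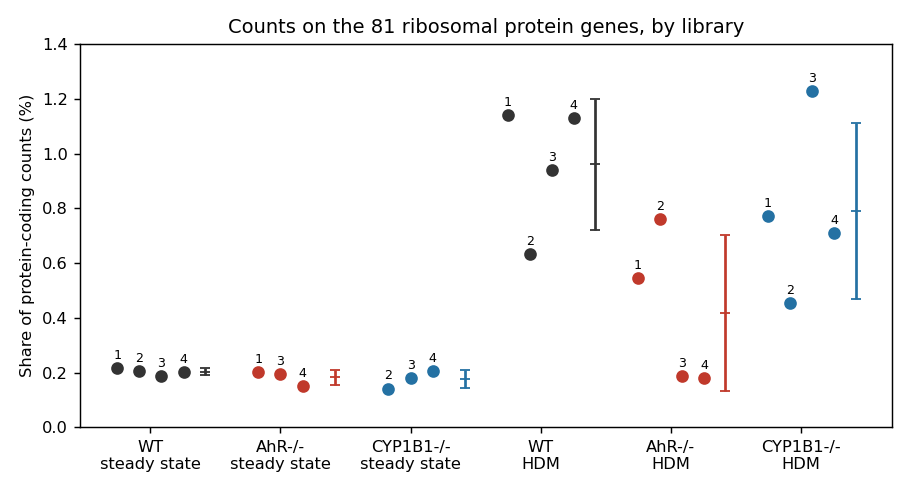
Share of protein-coding counts (%, dominant predicted genes left out) on the 81 ribosomal protein genes, with 1 numbered point per library and the mean ± SD of each group beside it. The steady-state libraries lie between 0.142% and 0.218%, and among the HDM libraries only AhR-/- replicates 3 and 4 lie there too.

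The HDM libraries differed from the steady-state libraries in cell markers as well. The summed CPM of the 19 hematopoietic markers ranged from 535 to 1734 in WT at steady state and from 6682 to 15860 after HDM, with the highest mean in Cd74 (5893 CPM in WT after HDM). Ptprc, which encodes CD45, was at 18.6 ± 23.2 CPM (SD, n = 4) in WT at steady state and at 412 ± 178 (SD, n = 4) after HDM, although the cells were sorted as CD45-. The 6 alveolar type 1 markers went from 19394 to 23670 CPM at steady state to 713 to 4719 after HDM in WT. Of the hematopoietic markers, Cd3e stayed under 1 CPM in every WT library at steady state, and none did so after HDM. Epcam was detected in every group (mean 106 to 206 CPM). The sum of the 4 pan-epithelial markers went from 1116 to 1646 CPM at steady state to 481 to 778 after HDM in WT. Within it, mean Epcam went from 108 to 196 CPM, Cdh1 from 774 to 253, Krt8 from 194 to 66.5 and Krt18 from 199 to 62.8. In sorted bulk cells, a change in which cells are present and a change of RNA within cells cannot be told apart. The part of these markers in the results below was not tested.

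**Figure D2:**
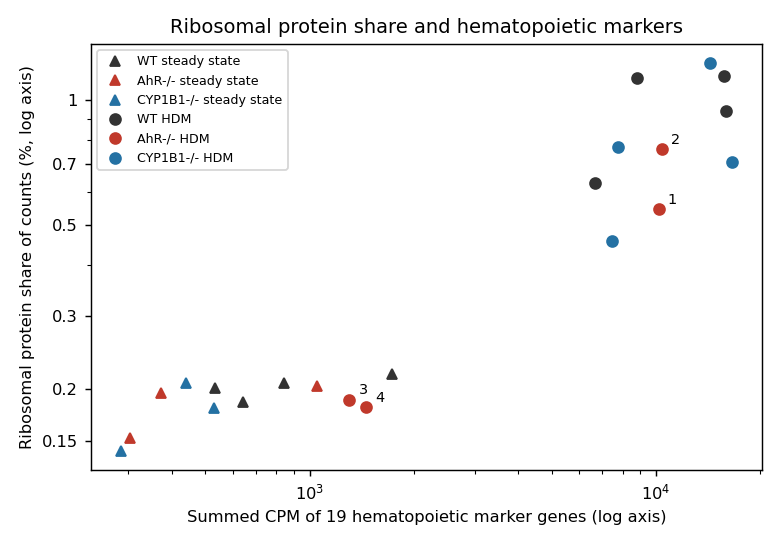
Share of counts on the 81 ribosomal protein genes (%, log axis) against the summed CPM of 19 hematopoietic markers (log axis), with 1 point per library; triangles are steady state, circles HDM, and colours genotypes. The steady-state libraries and AhR-/- HDM replicates 3 and 4 (numbered) lie at up to 1734 CPM, the other HDM libraries at 6682 CPM or more.

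Between the states, ribosomal protein genes were higher after HDM in WT nearly throughout. Of 79 genes tested, 70 were higher and 0 lower, while 19% of all 16639 genes were called higher and 19.4% lower (edgeR's quasi-likelihood test, Benjamini-Hochberg adjusted p of at most 0.05). The median log2 fold change was 1.90 for the ribosomal protein genes and -0.11 for all genes. All 79 had a log2 fold change above 0. The 4 HDM libraries did not overlap with the 4 steady-state libraries in 68 genes, all of them higher, compared with 17.7% of all genes higher and 21.2% lower. By subunit, 39 of 45 large-subunit genes, all 3 of the P stalk and 28 of 31 small-subunit genes passed, with median log2 fold changes of 1.78, 2.63 and 2.22.

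Rpsa, a small-subunit protein that also serves as a laminin receptor, had the largest change. Its CPM were 2.51, 4.26, 3.79 and 3.73 in WT at steady state and 53.0, 16.7, 48.8 and 38.7 after HDM, with an adjusted p of 7.5e-05 in edgeR (log2 fold change 3.46, standard error 0.58). The lowest HDM library lay far above the highest steady-state library. Rpl13a (chromosome 7, 45125558 to 45128761), a large-subunit protein that can leave the ribosome to repress translation of inflammatory mRNAs, had the lowest p. It was at 7.82, 6.91, 7.99 and 8.97 CPM at steady state and at 96.8, 36.0, 71.5 and 52.8 CPM after HDM (log2 fold change 3.02, standard error 0.43, adjusted p = 1.6e-05 from edgeR). The steady-state libraries were close to each other, and the lowest HDM library lay above all of them.

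Rplp0, the scaffold of the P stalk and a frequent reference gene in quantitative PCR, was at 51.6, 48.5, 43.9 and 57.1 CPM at steady state and at 450, 164, 346 and 284 CPM after HDM (log2 fold change 2.63, adjusted p = 0.00013 from edgeR). The P stalk proteins bound to it, Rplp1 and Rplp2, rose by log2 fold changes of 1.99 and 2.71. Among the 8 genes of lowest p were also Rps18 (2.67), Rps2 (2.39), Rps16 (2.27) and Rpl3 (2.37). Rpl5 and Rpl11, which carry the smallest rRNA of the large subunit and bind MDM2 when free, rose by 2.07 and 1.31, Rps6, the phosphorylated target of S6 kinases, by 1.96, and Rps27a, made as a fusion with ubiquitin, by 1.61.

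The other 9 genes did not pass, and their log2 fold changes lay between 0.11 and 1.28. Rps29, a small zinc-binding protein, was at 2.63, 3.09, 3.12 and 3.22 CPM at steady state and at 3.36, 2.03, 3.35 and 4.49 CPM after HDM (log2 fold change 0.16, standard error 0.40, adjusted p = 0.783 from edgeR). Rpl24 was at 0.477, 0.679, 0.677 and 0.828 CPM and at 1.26, 0, 0.913 and 1.09 CPM (log2 fold change 0.41, adjusted p = 0.595 from edgeR). In both, the groups overlapped. Both are genes whose families are counted mainly on pseudogenes, and the pseudogene counts of these families had log2 fold changes of 1.33 for Rpl24 (adjusted p = 0.0076 from edgeR) and 1.01 for Rps29 (adjusted p = 0.0698). Rpl39l (0.11), Rps28 (0.86), Rps27 (0.93) and Rpl36a (1.03) were also among those that did not pass. Over the 79 genes, the log2 fold change had a Spearman correlation of -0.35 with the percentage of family reads on pseudogenes and of 0.52 with the mean CPM, as a description over genes that share libraries.

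**Figure D3:**
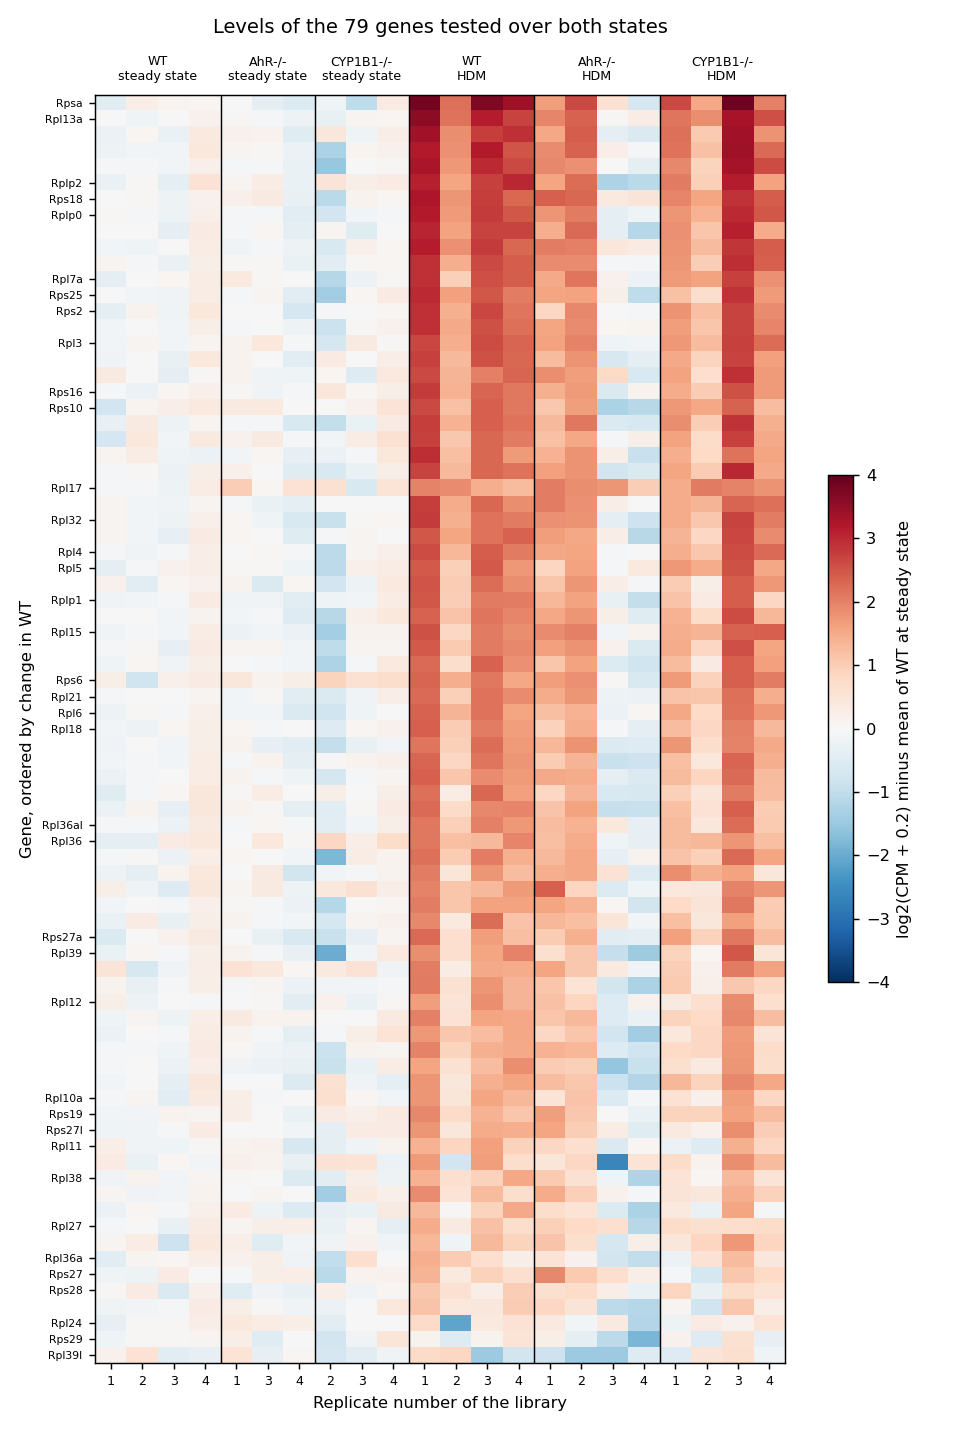
Levels of the 79 genes tested over both states in the 22 libraries, as log2(CPM + 0.2) minus the mean of the WT steady-state libraries, with genes ordered by their change in WT and some of those described in the text labelled. WT and CYP1B1-/- HDM libraries are above the WT steady-state mean in nearly all rows, and AhR-/- HDM replicates 3 and 4 look like the steady-state libraries. The lowest rows (Rpl24, Rps29 and Rpl39l) have the smallest change in WT, where Rpl24 and Rpl39l are at 0 CPM in single HDM libraries. In AhR-/-, every HDM library is below every steady-state library for Rpl39l.

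In the libraries labelled CYP1B1-/-, 57 of 79 genes were higher after HDM and 0 lower (15.5% and 17.9% of all genes), with a median log2 fold change of 1.62 (all genes -0.02). In 60 genes the groups did not overlap, all higher (14.2% of all genes higher, 17.3% lower). Rpsa again had the largest log2 fold change (3.08), and Rpl13a the lowest p: it was at 6.45, 8.57 and 8.31 CPM at steady state and at 35.5, 29.4, 79.7 and 48.1 CPM after HDM (log2 fold change 2.64, standard error 0.48, adjusted p = 0.00017 from edgeR). Also among the 8 of lowest p were Rps18 (2.54), Rpl6 (1.96), Rpl7a (2.50), Rplp0 (2.57) and Rpl5 (2.04). Without CYP1B1-/- HDM replicate 3, the library with the highest share, 39 genes were called (13.3% of all genes higher), with a median of 1.23. Leaving out each of the 6 others gave between 40 and 68 (12% to 19.7% of all genes).

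In the libraries labelled AhR-/-, 10 of 79 genes were higher after HDM and 0 lower (10.6% and 10.1% of all genes), with a median log2 fold change of 0.97 (all genes -0.05). The count depended on the tool: DESeq2 called 37 higher (15.4% of all genes), RLE scaling gave 20 (12.5%), the likelihood ratio test 17 (12.7%), the replicate block 5 (9.29%) and limma voom with sample weights 1 (10.9%), with a median of 0.09. Among the 10 were Rpl13a (1.64), Rps18 (1.66), Rpl15 (1.55), Rpsa (1.95), Rpl21 (1.24), Rpl6 (1.07), Rplp0 (1.41) and Rps4x (1.52). For Rpl13a (standard error 0.46, adjusted p = 0.014 from edgeR) the HDM values were 31.4, 41.6, 8.19 and 9.72 CPM, against 8.14, 7.41 and 6.77 at steady state. Replicates 1 and 2 were clearly higher, and replicates 3 and 4 only just above. The groups did not overlap in 6 genes with higher HDM libraries (12.7% of all genes) and in 1 with lower ones (23.2%), Rpl39l, which had at most 10 counts in these libraries.

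Without AhR-/- HDM replicates 3 and 4, 63 of 79 genes were higher and 0 lower in the AhR-/- libraries (15.2% and 8.46% of all genes), with a median log2 fold change of 1.61. Leaving out single libraries gave between 0 and 52: 52 without HDM replicate 4, 38 without HDM replicate 3, 5 without HDM replicate 2, 2 without HDM replicate 1, and 2, 2 and 0 without steady-state replicates 1, 3 and 4. The share of all genes called higher in these fits went from 4.06% to 14.2%. The median stayed between 0.73 and 1.31.

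**Figure D4:**
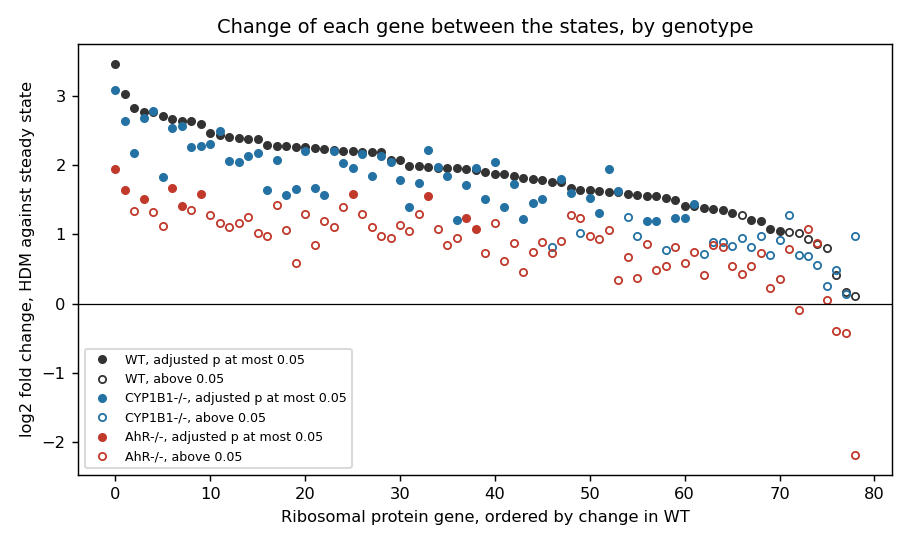
Log2 fold change of HDM against steady state for each of the 79 genes, ordered by WT, in WT, CYP1B1-/- and AhR-/- libraries; filled points have an adjusted p of at most 0.05 (edgeR). The points of WT and CYP1B1-/- lie above 0 throughout (medians 1.90 and 1.62), and those of AhR-/- lie lower (median 0.97), with 10 filled.

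Whether the change between the states differed by genotype was tested as an interaction. For AhR-/- against WT, 0 of 79 genes passed in either direction (0% of all genes). At an unadjusted p under 0.05, 9 of the 79 were lower and 0 higher, and 3050 of all 16639 genes lay under it in either direction. DESeq2 also called 0 (2.92% of all genes lower, 2.07% higher), as did edgeR's likelihood ratio test (0.685% and 0.643%), and limma voom with sample weights called 67 lower (18.7% of all genes lower, 11.6% higher). The median difference of log2 fold changes was -0.96 for these genes and 0.02 for all genes, and 77 of 79 were below 0. The lowest p belonged to Rps10 (-1.67, standard error 0.71, adjusted p = 0.219 from edgeR), Rpl13a (-1.38) and Rpl18 (-1.17). Without AhR-/- HDM replicates 3 and 4, the median was -0.43 and 0 genes passed. For CYP1B1-/- against WT, 0 of 79 passed (0% of all genes), none at an unadjusted p under 0.05 and none with DESeq2, the likelihood ratio test or voom. The median was -0.27, and the lowest p belonged to Rpl36 (-0.93, standard error 0.53), Rpl10a (-0.66) and Rps16 (-0.70).

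After HDM, ribosomal protein genes had lower values in the libraries labelled AhR-/- than in WT, and few passed the test. Of 78 genes tested, 6 were lower and 0 higher (7.69% lower), while 12.9% of all 14161 genes were called lower and 9.22% higher. In that fit the share called lower was below that of all genes. DESeq2 called 24 lower (16.7% of all genes), the likelihood ratio test 24 (16.5%) and limma voom with sample weights 64 (26%). None were called without the filter on low counts (4.54% of all genes) or with the replicate number as a block (0%). The log2 fold change was below 0 in 76 of 78 genes, compared with 50.1% of all genes, with a median of -1.01 against -0.0017. At an unadjusted p under 0.05, 43 of 78 were lower and 0 higher, and 5492 of all 14161 genes lay under it in either direction. Hematopoietic markers were lower in the same libraries: 16 of 19 had a lower mean in AhR-/- than in WT after HDM, and in 9 of 19 all 4 AhR-/- libraries lay below all 4 WT libraries. Among these was Ptprc, with at most 161 CPM against at least 209. Lyz2, a lysozyme gene that alveolar type 2 cells express as well, had up to 7664 CPM in AhR-/- against up to 4579 in WT. S100a8 and S100a9 also had higher means in AhR-/- than in WT (20.6 against 10.7 and 7.80 against 6.39 CPM). The 19 markers summed to 10165 and 10388 CPM in AhR-/- replicates 1 and 2, inside the WT range of 6682 to 15860. Epithelial markers differed too. The summed club cell markers were at 7873, 6611, 3020 and 1625 CPM in AhR-/- replicates 1 to 4 and at 192 to 1725 in WT. The alveolar type 1 markers were at 9320, 3577, 13909 and 18966 CPM against 713 to 4719 in WT. The alveolar type 2 markers were at 74044, 38842, 7864 and 7789 CPM against 4653 to 26287 in WT. Replicate 2 thus lay inside the WT range for alveolar type 1 markers, and replicates 3 and 4 did so for alveolar type 2 markers. The part of these markers in the result was not tested. The 6 genes were Rps2, which shapes the mRNA entry of the small subunit and aids decoding accuracy, Rpl6, Rpl13a, Rpl18 and Rpl5 of the large subunit, and Rps16 of the small subunit. Their log2 fold changes ranged from -1.11 to -1.45 and their adjusted p from 0.038 to 0.049 (edgeR).

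Rps2 (chromosome 17, 24718116 to 24721929) was at 66.4, 23.6, 55.8 and 38.3 CPM in WT and at 15.6, 33.2, 8.64 and 8.13 CPM in the AhR-/- libraries (log2 fold change -1.43, standard error 0.43, adjusted p = 0.038 from edgeR). Replicate 2 of AhR-/- lay above the lowest WT library. Rpl6 (chromosome 5, 121204481 to 121209241) was at 53.0, 26.6, 46.9 and 31.0 CPM in WT and at 23.8, 27.5, 8.64 and 10.8 CPM in the AhR-/- libraries (log2 fold change -1.11, standard error 0.34). Rpl5 was at 18.8, 6.60, 19.02 and 11.5 CPM in WT and at 6.13, 10.4, 3.18 and 4.42 CPM in AhR-/- (log2 fold change -1.13, standard error 0.36). In all 6 genes the groups overlapped, AhR-/- replicates 3 and 4 were the lowest, and WT replicate 2 was the lowest of WT. Rpl13a, Rpl18 and Rps16 had log2 fold changes of -1.45, -1.14 and -1.26.

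The libraries of the groups did not overlap in 2 of 78 genes, both lower (9.91% of all genes lower, 9.6% higher): Rps25 (log2 fold change -1.40) and Rpl11 (-0.87), with adjusted p of 0.066 and 0.11 from edgeR. Rpsa had the most negative value (-1.82, standard error 0.62, adjusted p = 0.052 from edgeR), followed by Rplp2 (-1.58). Rplp0 was at -1.40 and Rpl4 at -1.197, with adjusted p of 0.065 and 0.061 from edgeR. The only 2 genes above 0 were Rps27 (0.28) and Rpl17 (0.05). The stress-inducible Rps27l was at -0.58 (adjusted p = 0.317 from edgeR), with 141, 57.1, 117 and 115 CPM in WT and 124, 82.4, 51.4 and 29.7 CPM in AhR-/-.

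These calls rested on single libraries, as did those of all genes. Without AhR-/- replicates 3 and 4, 0 of 79 genes passed (0% of all genes in either direction, with 3126 of 15713 at an unadjusted p under 0.05) and the median log2 fold change was -0.51, with 74 of 79 below 0; Rps2 was then at -0.93 (standard error 0.45, adjusted p = 0.271 from edgeR) and Rpl13a at -0.83 (adjusted p = 0.260 from edgeR). Without AhR-/- replicate 2, 39 were lower (15.9% of all genes), and without WT replicate 2, 11 were (13.3%). Without any 1 of AhR-/- replicates 1, 3 and 4 or WT replicates 1, 3 and 4, none passed, with medians between -0.81 and -1.23. In these fits no gene of the whole table passed either, except without WT replicate 1 (2.16% higher and 3.97% lower), so the loss of calls is not particular to ribosomal protein genes.

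Between CYP1B1-/- and WT after HDM, 0 of 78 genes passed in either direction (0% of all genes), none at an unadjusted p under 0.05, and none with DESeq2, the likelihood ratio test or voom. The median log2 fold change was -0.30 (all genes -0.01), and 70 of 78 were below 0. In 0 of 78 were the libraries of the groups apart (0.424% of all genes higher, 0.198% lower). Among the 3 lowest in p were Rpl11 (-0.65, standard error 0.37) and Rpl38 (-0.48). Rpl11 was at 6.01, 4.06, 7.15 and 4.23 CPM in WT and at 1.80, 1.44, 6.04 and 3.92 CPM in the CYP1B1-/- libraries, with overlap. The comparisons of the mutants share the WT libraries.

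At steady state, ribosomal protein genes differed little between genotypes. For AhR-/- against WT, 0 of 77 genes passed in either direction (0% of all 15547 genes), with none at an unadjusted p under 0.05 and none with DESeq2, the likelihood ratio test or voom. Log2 fold changes ranged from -0.44 to 0.37, with a median of -0.10 (all genes -0.01). The groups overlapped in all 77 (2.1% of all genes were apart and higher, 1.46% lower). Rplp1 had the lowest p, at 26.0, 26.1 and 21.3 CPM in AhR-/- and 26.0, 26.9, 27.5 and 36.5 CPM in WT (log2 fold change -0.27, standard error 0.17). Rpl6 (-0.28) was also among the 3 lowest in p.

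For CYP1B1-/- against WT at steady state, 0 of 77 passed (0.00643% of all genes in each direction), with none at an unadjusted p under 0.05 and none with the other 3 tools. The median was -0.17 (all genes -0.05). Rps6 had the lowest p and was higher in all 3 CYP1B1-/- libraries, at 3.40, 2.79 and 2.95 CPM against 2.09, 0.926, 2.03 and 2.25 CPM in WT (log2 fold change 0.67, standard error 0.31, adjusted p = 0.822 from edgeR), but 92.8% of the reads of its family were on pseudogenes. Rps6 and Rps19 were the 2 genes without overlap (1.78% of all genes for higher libraries, 1.15% for lower ones). Rpl10 (-0.50) and Rplp0 (-0.36) were next in p.

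The genes varied more between libraries than most. Over the 22 libraries, the SD of the log2 level had a median of 1.01 for the 79 genes and 0.79 for all 16639 genes. It was largest for Rpsa (1.66), with Rpl13a (1.39) among the 3 largest, and smallest for Rps28 (0.53), Rps29 (0.60) and Rpl27 (0.61). Within groups the median SD was 0.24 in WT at steady state (all genes 0.32) and 0.60 in WT after HDM (0.57). It was 1.09 in the AhR-/- libraries after HDM, where all genes had 0.61.

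Pseudogene reads had a median change close to that of the genes, but single families differed. Where the counts of the pseudogenes alone stood in place of the gene, 75 families could be compared. In WT, 63 were higher after HDM and 0 lower (19% and 19.3% of all genes in that fit), with a median log2 fold change of 1.82 for pseudogenes and 1.88 for the genes of the same families. The values lay furthest apart in Rpl7a (2.44 for the gene and 0.18 for its pseudogenes), Rpl29 (1.81 and -0.10), Rpl35a (2.28 and 0.44) and Rpl17 (2.21 and 0.63). Between AhR-/- and WT after HDM, 4 were lower, a smaller share than the 12.7% of all genes, and all 75 were below 0, with medians of -1.19 and -0.97. Per 100 counts on the genes there were 106 to 117 on pseudogenes in WT at steady state and 99.7 to 104 in WT after HDM. With gene and pseudogene counts summed, 71 genes were higher after HDM in WT (19.1% of all genes) and 4 lower in AhR-/- against WT (12.8% of all genes). Without AhR-/- HDM replicates 3 and 4, both kinds of count called 0 in AhR-/- against WT (0% of all genes), with a median log2 fold change of -0.56 in each.

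**Figure D5:**
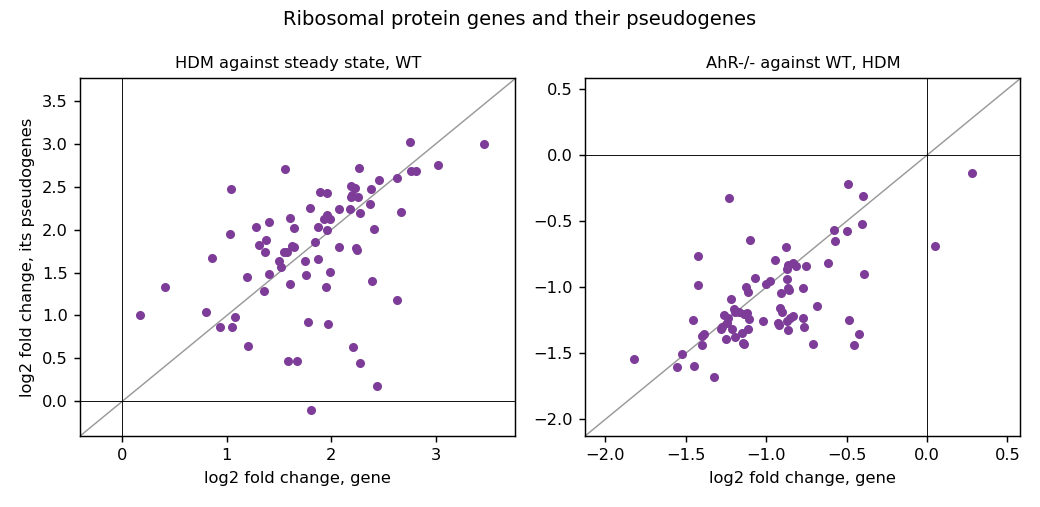
Log2 fold change of each of 75 ribosomal protein genes (x axis) and of the summed counts of its pseudogenes (y axis), for HDM against steady state in WT (left) and AhR-/- against WT after HDM (right); the grey line marks equal values. Genes and pseudogenes lie in the same quadrant in all but a few families, with medians of 1.88 and 1.82 on the left and -0.97 and -1.19 on the right.

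Other genes of the translation machinery were read from lists. Their counts are to be read against the share of all genes called: 19% higher and 19.4% lower between the states in WT, 15.5% and 17.9% in CYP1B1-/-, 10.6% and 10.1% in AhR-/-, and 9.22% higher and 12.9% lower between AhR-/- and WT after HDM. Among the 6 ribosomal proteins outside the symbol rule, 4 were higher after HDM in WT and 0 lower, with a median log2 fold change of 1.77. Rack1, a scaffold on the small subunit, was at 43.3 ± 8.76 CPM (SD, n = 4) at steady state and 246 ± 98.1 (SD, n = 4) after HDM (log2 fold change 2.50, adjusted p = 0.00022 from edgeR), and Rps3a1 was at 2.66. None of the 6 passed between AhR-/- and WT after HDM (median -0.85; Rack1 -1.25 and Rpl7l1 -0.61). Of 33 translation factors and other TOP mRNAs, 19 were higher and 0 lower after HDM in WT (median 1.07), 15 and 0 in CYP1B1-/- (0.96) and 2 and 0 in AhR-/- (0.31). Between AhR-/- and WT after HDM, 7 were lower and 0 higher (median -0.77). Among them were Eif2s3x, a subunit of the factor that brings the initiator tRNA (log2 fold change -0.94), and Eif3d, a cap-binding subunit of eIF3 (-1.21, 16.9 ± 7.99 against 40.1 ± 13.1 CPM; SD, n = 4 each).

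Of 36 genes of ribosome biogenesis, 9 were higher and 0 lower after HDM in WT (median 0.54), near the 19% of all genes. Between AhR-/- and WT after HDM, 10 were lower (12.9% of all genes) and 0 higher (median -0.64). The lowest p belonged to Pes1 and Bop1, partners in the processing of large-subunit rRNA. Pes1 was at 11.6 ± 4.39 CPM in AhR-/- and 28.9 ± 10.9 in WT (SD, n = 4 each; log2 fold change -1.27, adjusted p = 0.026 from edgeR), and Bop1 at 9.76 ± 4.79 and 25.7 ± 9.19 (log2 fold change -1.34). Among 77 mitochondrial ribosomal proteins, encoded by separate genes, 11 were higher and 1 lower after HDM in WT (median 0.29), and 1 was higher and 4 lower in AhR-/- against WT (median -0.04), shares below the 19% of all genes higher and the 12.9% lower. Of these, Mrpl14 was higher (1.13) and Mrpl4 lower (-0.60). Of 20 regulators of ribosomal protein mRNA, 6 were higher and 2 lower after HDM in WT, 4 and 3 in CYP1B1-/- and 5 and 3 in AhR-/-. Between AhR-/- and WT after HDM, 1 was higher, Max, the partner of MYC (1.20), and 2 were lower, among them Eif4ebp1, the translational repressor under mTOR (-0.83, 13.0 ± 2.69 against 23.3 ± 5.96 CPM; SD, n = 4 each). In neither comparison of the mutants with WT at steady state, nor between CYP1B1-/- and WT after HDM, did a gene of these lists pass. Without AhR-/- HDM replicates 3 and 4, 0 genes of these lists passed between AhR-/- and WT after HDM, where 0% of all genes passed. The medians were then -0.49 for the other ribosomal proteins, -0.39 for translation factors, -0.47 for ribosome biogenesis, 0.11 for mitochondrial ribosomal proteins and 0.22 for the regulators. Between the states in AhR-/-, 10 translation factors and 5 of the 6 other ribosomal proteins were higher without these libraries, where 15.2% of all genes were called higher.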

How the data were processed

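Libraries were made by oligo-dT priming with template switching and tagmentation. Per the labels and the methods, the authors aligned bbduk-trimmed reads to the mm10 genome using GSNAP and obtained gene counts from featureCounts 2.0.0. The deposited values are counts, without normalization. Here, 54147 of 54373 genes were matched to GENCODE M21 by identifier, and protein-coding genes were filtered (filterByExpr, minimum count 10, minimum total 15), normalized with TMM and tested in R 4.3.3 with the quasi-likelihood test of edgeR 4.0.16 (robust), with 1 fit per table for genotype and 1 over all 22 libraries for state and interaction. Benjamini-Hochberg adjusted p-values of at most 0.05 over all genes tested were called. The standard error is the absolute log2 fold change over the square root of F. CPM use the TMM library sizes of the fit over both tables. Pseudogenes were assigned to a gene by 50 shared bases with its coding transcripts. Scripts were tested on simulated data.

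Named genes are the 5 highest and 5 lowest in level, paralogs with their parents, the up to 8 called genes of lowest p per direction (3 where none was called), the 3 of largest and smallest SD, P stalk and other fixed genes, and 2 per list; some genes that the rule names are not reported here. Rps25, Rps19, Rps10, Rps3a1 and Rpl8 or Rps3 in the pseudogene shares, among others given as single values, were named after their values were seen. The genes and lists were chosen with earlier results of these data known. Alternatives were edgeR's likelihood ratio test, DESeq2 1.42.0, limma 3.58.1 voom with sample weights, RLE, TMM without the ribosomal protein genes, no filter, dominant predicted genes (at least 1% of a library) left out, a replicate block, single libraries left out and AhR-/- HDM replicates 3 and 4 left out. Family counts and pseudogene counts (also without those 2 libraries) and other lengths were chosen after seeing the data.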

Additional observations from a re-analysis of the deposited data

Results flagged for a closer look

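Reads on the pseudogenes of the ribosomal protein genes lie outside the protein-coding comparisons and amounted to 825065 counts over the 22 libraries, 94.3 to 119 per 100 counts on the genes themselves. They were present in every library.

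In 184 groups of 4 libraries examined for a library far from the other 3, 7 had one, a smaller share than the about 1 in 20 that chance gives. WT steady-state replicate 4 stood above the others, on the log2 CPM scale, in Rplp1 (5.19 against 4.71 to 4.78), Rps4x (3.94 against 3.33 to 3.41), Rpl15 (3.36 against 2.94 to 2.99) and Rpl21 (2.51 against 2.36 to 2.38). WT steady-state replicate 2 was low in Rps6 (-0.00526 against 1.07 to 1.22). AhR-/- HDM replicate 4 was low in Rpl27 (0.18 against 2.06 to 2.36). WT HDM replicate 4 was the only one of its group with reads of Rpl10l, 3 counts, which puts it at -1.77 on the log2 scale with 0.1 added.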

How the results depend on the processing

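The 0 calls at steady state and between CYP1B1-/- and WT after HDM stayed at 0 under every alternative run. In WT between the states, 63 to 75 genes were higher under every alternative, single left-out libraries included (67 to 74), and 0 lower, with 14.5% (no filter) to 26.2% (voom) of all genes higher. In CYP1B1-/- the count of 57 went from 46 with the replicate block (15% of all genes) to 67 with DESeq2 (20.5%; single libraries left out, 39 to 68). Between AhR-/- and WT after HDM, the 6 lower genes became 24 with DESeq2, 24 with the likelihood ratio test and 64 with voom, and 0 without the filter on low counts, with the replicate block and without AhR-/- HDM replicates 3 and 4 (single libraries left out, 0 to 39); the median stayed between -0.51 and -1.58. The share of all genes called lower was 16.7%, 16.5% and 26% with the first 3 of these tools and 4.54%, 0% and 0% with the last 3 settings. In AhR-/- between the states, the 10 higher genes became 37 with DESeq2, 20 with RLE, 17 with the likelihood ratio test, 16 without dominant predicted genes, 5 with the replicate block, 1 with voom (median 0.09) and 63 without replicates 3 and 4 (67 with family counts and 57 with pseudogene counts; single libraries left out, 0 to 52). The share of all genes called higher was 15.4%, 12.5%, 12.7%, 10.7%, 9.29%, 10.9% and 15.2% in these 7 settings, in the order given. The interaction of AhR-/- with state had 0 lower genes, 67 with voom, and 0 to 5 with single libraries left out, 5 of them without AhR-/- HDM replicate 2 (3.4% of all genes lower). The causes were not tested. Without replicates 3 and 4, the log2 fold change of Rpl36a between the states in AhR-/- was 1.86 with family counts and 1.95 with pseudogene counts, against -0.09 in the reported fit. The reported fit uses the counts of the gene itself and includes replicates 3 and 4. These values therefore differ in libraries as well as in kind of count. With replicate numbers as a block, no call other than those given above changed by more than 1.5 times. Same-numbered libraries correlated between -0.02 and 0.24 at steady state and between -0.47 and 0.67 after HDM. Libraries with different numbers correlated between -0.27 and 0.24 at steady state and between -0.67 and 0.52 after HDM. Whether the numbers pair the libraries cannot be told from these overlapping ranges.

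With all protein-coding counts as denominator, the mean share of the ribosomal protein genes was 0.160% in WT, 0.154% in AhR-/- and 0.134% in CYP1B1-/- at steady state and 0.559% in WT and 0.420% in CYP1B1-/- after HDM, and 0.229% ± 0.248 (SD, n = 4) in AhR-/- after HDM. With all counts it was 0.155%, 0.148%, 0.130%, 0.525%, 0.398% and 0.215%. Of the 10 genes of highest level, 9 or more remained among the 10 with other lengths or family counts. Depth limits the AhR-/- HDM replicate 3 most, with 2225 counts on the 81 genes, and reads shared with pseudogenes limit the level of most single genes.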
